A study of Mus musculus with 14 samples.

Results

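The miRNAs miR-22-3p, miR-203-3p, miR-378-3p, miR-802-5p and miR-1981-5p of the mouse small intestine were followed across cell populations sorted by a Sox9 reporter. Listed as mmu-mir-22-3p, mmu-mir-203-3p, mmu-mir-378-3p, mmu-mir-802-5p and mmu-mir-1981-5p, they are 5 of 2030 entries in a table of small RNA sequencing values, taken as the rows at the annotated start of each miRNA. They were chosen by their measured values, because these rise from the Low or the High gate toward the Sublow or the Negative gate and because they lie outside the miR-192, miR-194 and miR-215 loci. Those levels are therefore a description, and no test is made between a gate on the low side and a gate on the high side of that rule.

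The libraries came from the small intestine, strain C57BL/6J, and all groups, Non-sorted included, are titled Sox9eGFP, a reporter whose green fluorescence follows Sox9 activity. There were 2 libraries of Non-sorted cells and 3 libraries each of the Negative, Sublow, Low and High gates, from the dimmest to the brightest. The labels give no treatment, age or further allele. As background, this reporter has been used to enrich differentiated cells in Negative, transit-amplifying progenitors in Sublow, stem cells in Low and enteroendocrine cells in High. Whether libraries of one group are separate animals is not stated, so a p-value here reflects variation among libraries, which may be technical. Values are RPM, reads per 1e+06 reads assigned to miRNA entries, and the estimated depth, in units of 1e+06 reads, was 1.89 to 16.4 per library.

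A mature miRNA is cut from one arm of a hairpin transcript and pairs with target mRNAs mainly through its seed, bases 2 to 8 from the 5′ end. The intestinal epithelium renews itself from crypt stem cells, whose progeny divide, stop dividing and mature as they leave the crypt. miR-203 is best known from skin, where it promotes the exit of progenitors from the cell cycle by repressing the transcription factor p63. miR-378 is encoded within Ppargc1b, the gene of a coactivator of mitochondrial metabolism. miR-22 is a conserved miRNA with roles in heart and blood.

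The mature sequences from RefSeq (GRCm38.p6) are shown 5′ to 3′ with the seed in capitals, to show that the members do not form a seed family, for the 4 of 5 members matched by name.
miR-22-3p: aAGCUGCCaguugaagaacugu
miR-203-3p: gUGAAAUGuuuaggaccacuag
miR-802-5p: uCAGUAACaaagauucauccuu
miR-1981-5p: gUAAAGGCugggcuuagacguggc
The 4 seeds differ from each other. None of them is shared with any other entry among the 456 of 534 annotated-start entries that matched a RefSeq sequence.

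The hairpins show which arm carries each member, with that arm in capitals.
Mir22: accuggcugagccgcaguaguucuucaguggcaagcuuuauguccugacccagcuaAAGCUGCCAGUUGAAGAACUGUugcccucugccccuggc
Mir203: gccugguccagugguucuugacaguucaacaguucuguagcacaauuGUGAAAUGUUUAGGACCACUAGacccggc
Mir802: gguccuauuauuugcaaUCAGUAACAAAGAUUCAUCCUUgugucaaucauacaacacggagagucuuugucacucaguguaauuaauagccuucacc
Mir1981: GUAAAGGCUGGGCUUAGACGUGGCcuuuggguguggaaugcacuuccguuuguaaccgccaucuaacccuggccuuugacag
Mir22 lies at chr11:75463716-75463810 on the plus strand and overlaps exons of Mir22hg, a non-coding transcript, and of Tlcd2 in GENCODE M21. Mir203 lies at chr12:112130880-112130955 and Mir802 at chr16:93369720-93369816, both on the plus strand and with no overlapping gene in that annotation. Mir1981 lies at chr1:184822407-184822488 on the minus strand, within an intron of Marc2. Mir378a, the hairpin of miR-378-3p, lies within an intron of Ppargc1b. These positions are on GRCm38 and are not those of the mm9 build named for the deposited values.

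All 5 members had their highest mean of the 4 gates in Negative cells. In 4 of them, miR-203-3p, miR-378-3p, miR-802-5p and miR-1981-5p, the mean fell stepwise with brightness to its lowest value in High cells. miR-22-3p was different, with its lowest value in Low cells and a higher one in High cells. Because these are bulk libraries with a fixed total, fewer cells of a type and less RNA per cell cannot be told apart.

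**Figure D1:**
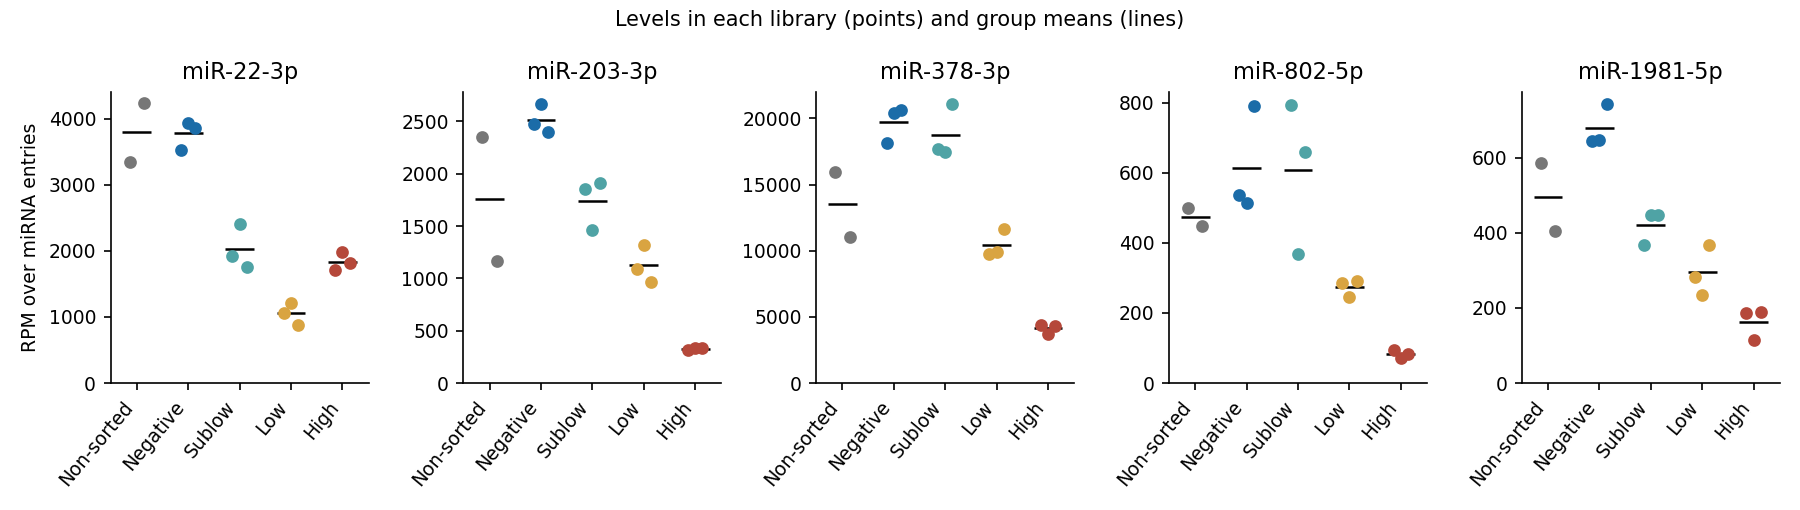
RPM of each member in every library (points) with the group mean (line), by group. Each vertical axis starts at 0. miR-22-3p is lowest in the 3 Low libraries, whereas the other members are lowest in the 3 High libraries.

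miR-22-3p had 3529, 3929 and 3863 RPM in Negative cells, 1927, 2406 and 1761 RPM in Sublow cells, 1060, 1213 and 885 RPM in Low cells, and 1715, 1975 and 1812 RPM in High cells. Among the gates, all Negative libraries lay above and all Low libraries below the rest, and the Sublow and High libraries overlapped. The means were 3774 ± 214.4, 2031 ± 335, 1053 ± 164 and 1834 ± 131 RPM in Negative, Sublow, Low and High cells (SD, n = 3 each). Negative cells held 3.58 times the Low level and 2.06 times the High level.

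miR-203-3p showed the steadiest order of the gates. It had 2473, 2663 and 2402 RPM in Negative cells, 1857, 1461 and 1908 RPM in Sublow cells, 1094, 1321 and 965 RPM in Low cells, and 313, 337 and 333 RPM in High cells. No neighbouring gates overlapped. Its mean of 2513 ± 135 RPM in Negative cells was 2.23 times that of Low cells, at 1127 ± 180, and 7.67 times that of High cells, at 328 ± 12.95 (SD, n = 3 each).

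miR-378-3p was the most abundant member, at 1.97% of all miRNA reads in Negative cells and 0.416% in High cells. It had 18139, 20410 and 20657 RPM in Negative cells, 17652, 17421 and 21121 RPM in Sublow cells, 9723, 9901 and 11654 RPM in Low cells, and 4414, 3744 and 4325 RPM in High cells. The Negative and Sublow libraries overlapped, and both gates lay above Low, which lay above High. The means were 19736 ± 1388, 18731 ± 2073, 10426 ± 1067 and 4161 ± 364 RPM in Negative, Sublow, Low and High cells (SD, n = 3 each).

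Relative to its mean, miR-802-5p had the widest spread of the members within the 2 dimmest gates, with a coefficient of variation of 24.9% in Negative and 35.7% in Sublow cells. It had 537, 514 and 790 RPM in Negative cells, 794, 369 and 658 RPM in Sublow cells, 287, 246 and 292 RPM in Low cells, and 94.5, 72.1 and 81.9 RPM in High cells. The Negative and Sublow libraries overlapped, and every one of them lay above every Low and High library. Sequencing lane moved with the spread, since the 3 libraries of these gates on lane L005 were at 658 to 794 RPM and the 3 on lane L006 at 369 to 537 RPM. The part of the lane in this was not tested. The mean in Negative cells, 613 ± 153 RPM, was 7.41 times that of High cells, at 82.8 ± 11.2 (SD, n = 3 each).

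miR-1981-5p had 645, 648 and 744 RPM in Negative cells, 367, 448 and 449 RPM in Sublow cells, 284, 235 and 367 RPM in Low cells, and 186, 115 and 188 RPM in High cells. The Sublow and Low gates overlapped at their edge, where Sublow replicate 1 had 366.6 RPM and Low replicate 3 had 367.4 RPM. The other neighbouring gates did not overlap. Its means were 679 ± 56.4, 421 ± 47.2, 295 ± 67.1 and 163 ± 41.6 RPM in Negative, Sublow, Low and High cells (SD, n = 3 each). In the 2 shallowest libraries, High replicates 2 and 3, its values rested on an estimated 331 and 356 reads.

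All 5 members lay above every Low library in every Negative library, as did 18.4% of the 588 entries tested. In Sublow cells 4 members lay above every Low library (12.9% of entries), the exception being miR-1981-5p, and 4 above every High library (24.1%), the exception being miR-22-3p. Nothing is read from these counts. Among entries at the annotated start, 19 lay above both Low and High in every Negative library without overlap. Besides the members these were 5 arms of the miR-194 and miR-215 hairpins, miR-378-5p and miR-802-3p from the members' own hairpins, and miR-103-1-3p, miR-103-2-3p, miR-147-3p, miR-31-5p, miR-5105, miR-5109 and miR-5115.

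The table is scaled to a fixed total, and miR-215-5p alone took 33.5 to 34.5% of it in Negative cells, against 4.37 to 5.25% in Low cells. The miR-192, miR-194 and miR-215 forms together took 59.7 to 60.01% in Negative cells and 19.4 to 22.3% in Low cells. The median log2 difference of all tested entries between Negative and Low was −0.90, on the log2(RPM + 1) scale used for all log2 values here, while the members were at 0.92 to 1.85. After median-ratio rescaling, which takes the typical entry as unchanged and shifted an entry by a median of 0.84 here, the members were at 1.80 to 2.73. After dividing by the total without miR-192, miR-194 and miR-215, they were at 1.91 to 2.83.

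**Figure D2:**
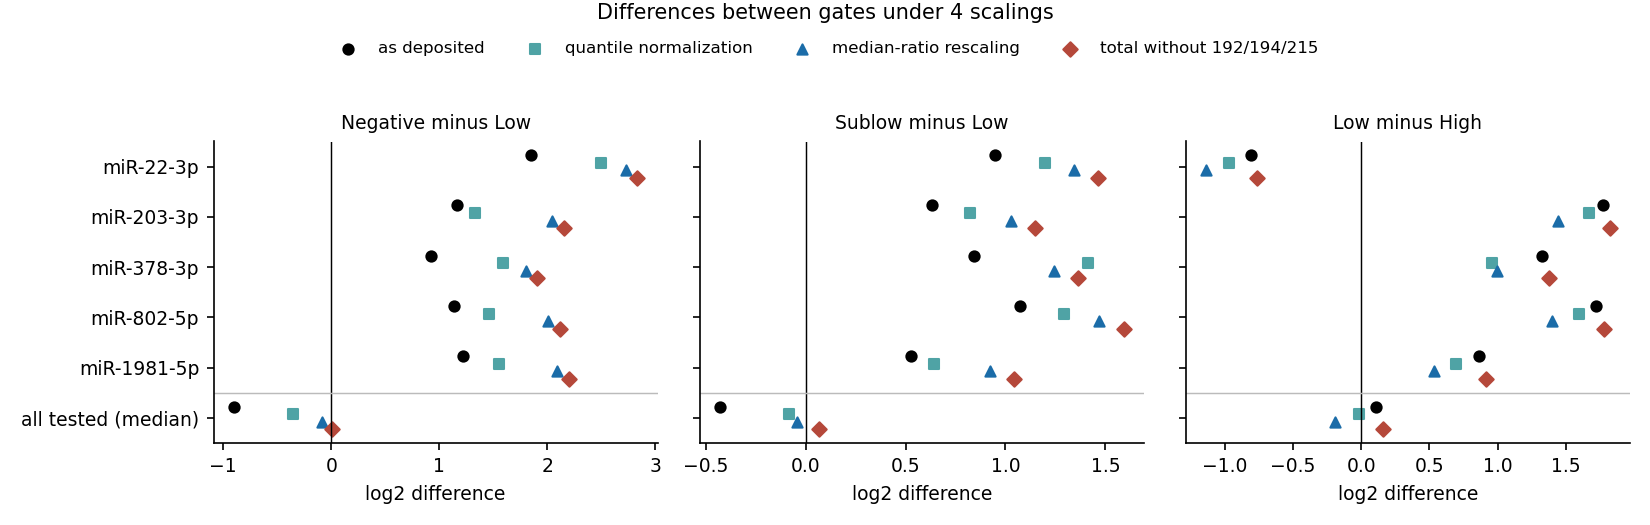
Log2 differences of the 5 members and the median of all tested entries (bottom row) between gates, under the deposited scale and 3 other scalings. Negative minus Low and Sublow minus Low are contrasts of the rule, and all 3 other scalings raised the typical entry in both. That the members stay above 0 there is therefore no support. Between Low and High the signs are also the same under all 4 scalings. The median of all entries between Negative and Low is −0.90 as deposited and −0.35 to 0.0059 under the others.

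The difference between Low and High cells was not the contrast of the rule, but the rule used the same libraries. A member could be chosen for a low High value, so the calls here are not independent of the choice. The difference was tested with limma across all 588 entries with Benjamini-Hochberg adjustment. All 5 members passed, 4 higher in Low and 1 lower, against 20.1% and 7.99% of all entries. miR-203-3p was 3.44 times higher in Low (log2 difference 1.77, SE 0.22, adjusted p = 9.88e-05), and miR-802-5p was 3.32 times higher (1.72, SE 0.26, adjusted p = 4.16e-04). miR-378-3p was 2.51 times higher in Low (1.32, SE 0.14, adjusted p = 3.42e-05). miR-1981-5p was 1.81 times higher (0.86, SE 0.22, adjusted p = 0.0135), a call lost after median-ratio rescaling (0.54, adjusted p = 0.0886), with quantile normalization (adjusted p = 0.0742) and without Low replicate 3 (adjusted p = 0.0611).

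miR-22-3p ran the other way, at 1053 RPM in Low against 1834 RPM in High (log2 difference −0.81, SE 0.15, adjusted p = 0.00148). Its 3 Low libraries lay below its 3 High libraries. Rescaling by median ratios, with a median shift of −0.32 over entries in this comparison, left it at −1.14, and the 4 other members stayed positive at 0.54 to 1.44. Between the 2 Low and 2 High libraries labelled L000, the differences were −0.83 for miR-22-3p and 1.80, 1.40, 1.69 and 0.997 for miR-203-3p, miR-378-3p, miR-802-5p and miR-1981-5p. Their column labels read Combo beside L000 without saying what it covers, so a shared lane is not established.

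Enteroendocrine markers moved with this comparison. The sum of miR-375-3p, miR-7a-1-5p and miR-7b-5p was 82016 to 106946 RPM in Low and 151003 to 172443 RPM in High libraries. It was 24003 to 25588 RPM in Sublow and 2551 to 3634 RPM in Negative libraries. The part of these markers in the members' levels was not tested.

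Between Negative and Sublow cells, the 2 dimmest gates, the members split. The rule used these libraries as well, so the calls are not independent of the choice. miR-22-3p was 1.86 times higher in Negative (log2 difference 0.90, SE 0.15, adjusted p = 5.01e-04) and miR-1981-5p 1.61 times higher (0.69, SE 0.22, adjusted p = 0.0308), so that 2 of 5 members passed, against 8.67% of all entries in that direction (51 higher and 158 lower, and 75 and 68 after median-ratio rescaling). The miR-1981-5p call was lost when any library of these gates other than Sublow replicate 2 was left out (adjusted p up to 0.104, without Sublow replicate 1), without a filter on low values (adjusted p = 0.0651) and with lane as a term (adjusted p = 0.0638). miR-203-3p, at 2513 RPM in Negative and 1742 RPM in Sublow, did not pass (0.54, SE 0.22, adjusted p = 0.0738), although its libraries did not overlap. It passed when Non-sorted replicate 1 or 2 was left out of the shared estimate of the spread (adjusted p = 0.00907 and 0.00905).

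miR-378-3p and miR-802-5p had nearly equal means in Negative and Sublow cells. Their log2 differences were 0.079 (SE 0.14, adjusted p = 0.707) and 0.058 (SE 0.26, adjusted p = 0.915). The miR-802-5p value turned to −0.26 without Sublow replicate 2 and to −0.14 without Negative replicate 3. Median-ratio rescaling, with a median shift of 0.46 over entries here, put miR-203-3p at 1.02 (adjusted p = 0.00172) and miR-378-3p at 0.56 (adjusted p = 0.00406), so that 4 of 5 passed. On lane L005 (1 Negative and 2 Sublow libraries) and lane L006 (2 and 1), the differences were 1.07 and 0.63 for miR-22-3p, 0.87 and 0.53 for miR-1981-5p, 0.35 and 0.81 for miR-203-3p, 0.097 and 0.14 for miR-378-3p and 0.13 and 0.51 for miR-802-5p.

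**Figure D3:**
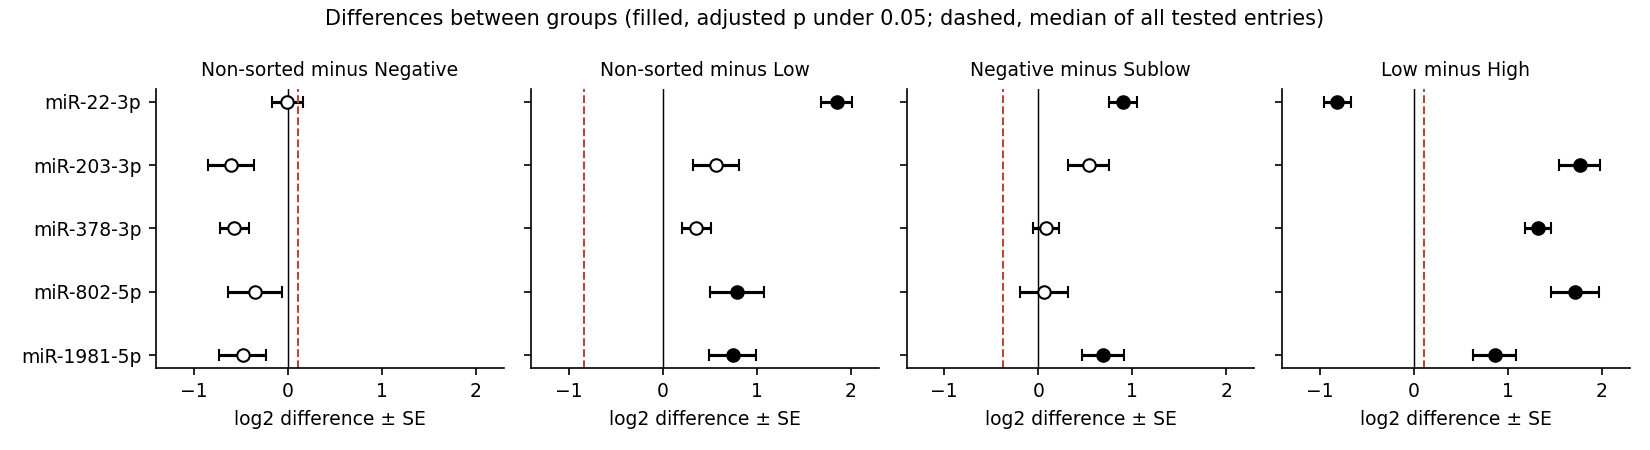
Log2 differences of the members with their SE from limma in 4 comparisons that were not the rule's own contrasts. Each includes gate libraries that the rule used. Filled points have an adjusted p below 0.05 and the dashed line is the median of all 588 tested entries. miR-22-3p stands at −0.81 between Low and High, where the other members stand at 0.86 to 1.77.

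The Non-sorted libraries took no part in choosing the members, but the gate libraries they are set against did, and the Low values were chosen to be low. The calls against Low are therefore not independent of the choice. miR-22-3p had 3344 and 4234 RPM in Non-sorted cells, miR-203-3p 2353 and 1162 RPM, and miR-378-3p 15939 and 11068 RPM. miR-802-5p had 499 and 448 RPM in Non-sorted cells, and miR-1981-5p 586 and 404 RPM. The pair differed most in miR-203-3p, with a coefficient of variation of 47.9%, against 7.60 to 25.9% in the other members.

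Against Low cells, 3 of 5 members were higher in Non-sorted cells, with 14.3% of all entries called in that direction (84 higher and 271 lower, and 113 and 87 after median-ratio rescaling). miR-22-3p was 3.60 times higher (log2 difference 1.85, SE 0.16, adjusted p = 3.18e-06). miR-802-5p was 1.72 times higher (0.79, SE 0.29, adjusted p = 0.0328) and miR-1981-5p 1.68 times higher (0.74, SE 0.25, adjusted p = 0.0239). The miR-802-5p call was lost without any 1 of the 5 libraries compared (adjusted p up to 0.141, without Non-sorted replicate 1) and the miR-1981-5p call without Non-sorted replicate 1 (adjusted p = 0.2149), Low replicate 1 (0.0518) or Low replicate 2 (0.0778), without a filter on low values (0.0507) and with lane as a term (0.2002). No lane label is shared by both groups, and what the label L000 of Low replicates 2 and 3 covers is not stated.

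miR-203-3p and miR-378-3p were at 0.56 (adjusted p = 0.0616) and 0.35 (adjusted p = 0.0665) between Non-sorted and Low. Without Non-sorted replicate 2 both passed (1.07 and 0.62), miR-203-3p also without Low replicate 2 (adjusted p = 0.0454) and miR-378-3p without Low replicate 3 (adjusted p = 0.0474). With median-ratio rescaling, quantile normalization or the total without miR-192, miR-194 and miR-215, all 5 members passed. The median of all tested entries was −0.84 in this comparison as deposited, and median-ratio rescaling shifted an entry by a median of 0.76.

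Against Negative cells, 0 of 5 members passed in limma, where 3.74% of all entries were called, and 2 had an unadjusted p below 0.05. miR-22-3p averaged 3789 ± 629 RPM in Non-sorted cells (SD, n = 2) and 3774 ± 214.4 RPM in Negative cells (SD, n = 3). In the other 4 members both Non-sorted libraries lay below all Negative libraries, as did 9.18% of all entries. The largest differences were in miR-203-3p (−0.60, SE 0.24, adjusted p = 0.291) and miR-378-3p (−0.57, SE 0.15, adjusted p = 0.0725). miR-378-3p passed after median-ratio rescaling (−0.66, adjusted p = 0.0114), and both passed when Non-sorted replicate 1 was left out (−1.11 and −0.83, adjusted p = 0.00515 and 0.00807), with the remaining library assumed to vary like the other groups. Within lane L006 (2 libraries each), miR-203-3p was at −0.63 and miR-378-3p at −0.53.

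Reads of the members' hairpins that start elsewhere, or come from the other arm, are listed as entries of their own. The suffix with a sign and a number was read as a shift of the start, since the table does not define it. A shift changes the seed, as the +1 form of miR-203-3p shows beside the annotated form, with the seed in capitals and the +1 form read as starting 1 base downstream.
miR-203-3p: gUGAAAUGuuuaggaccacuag
miR-203-3p, +1 form: uGAAAUGUuuaggaccacuag
Neither seed is shared with another annotated-start entry among those matched to RefSeq.

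The +1 form made up a large part of miR-203-3p. Its share of all reads of the arm was 36.9, 35.5 and 37.0% in Negative cells, 44.4, 45.4 and 44.9% in Sublow cells, 44.0, 47.3 and 46.0% in Low cells, and 43.1, 48.3 and 46.6% in High cells. The 3 Negative libraries lay below all 9 others of the gates, and the other gates overlapped. In Non-sorted cells it was 37.2 and 46.9%. The share contains the annotated row that chose the member, so it is given without a test.

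The +1 form averaged 1493 ± 33.6, 1480 ± 195, 999 ± 215.1 and 293 ± 42.6 RPM in Negative, Sublow, Low and High cells (SD, n = 3 each). Its log2 difference between Negative and Sublow was 0.021 (SE 0.17, adjusted p = 0.964), where the annotated form was at 0.54. After median-ratio rescaling the +1 form passed (0.50, adjusted p = 0.0395), where the annotated form was at 1.02. Between Low and High it was 3.404 times higher in Low (1.75, SE 0.17, adjusted p = 2.48e-05), close to the 1.77 of the annotated form. Whether the forms differ in their change was not tested.

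**Figure D4:**
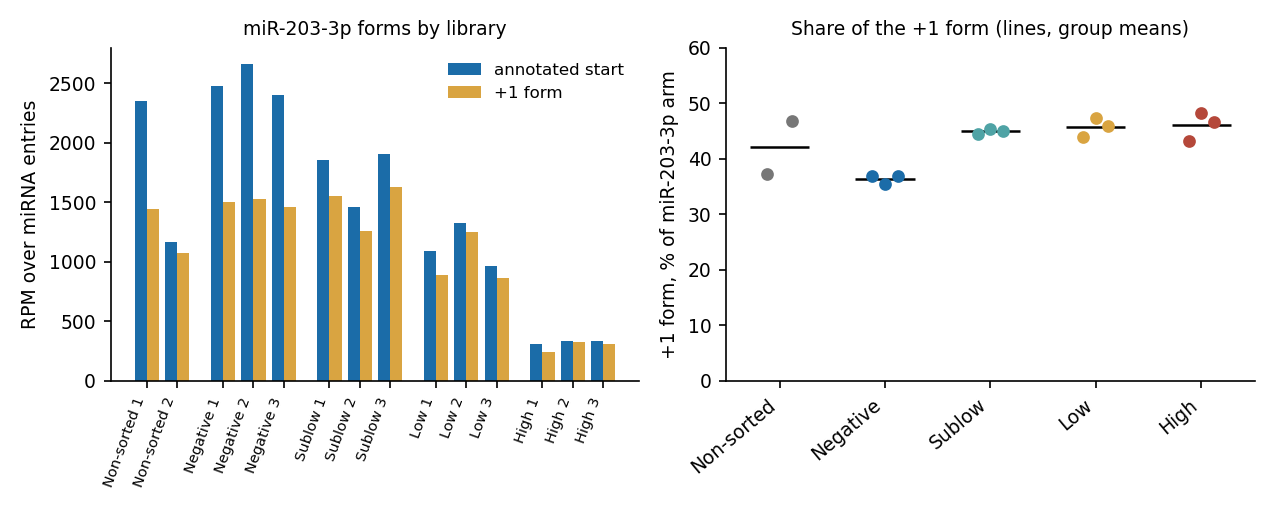
Left, RPM of the annotated and +1 forms of miR-203-3p in each library. Right, the +1 form as a percentage of all miR-203-3p arm reads by library (points) with the group mean (line), at 35.5 to 37.0% in Negative and 43.1 to 48.3% in the other gates.

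In the other members the shifted forms were a smaller part of the arm. In miR-378-3p they took 3.73% ± 0.26, 4.10% ± 0.093, 4.70% ± 0.26 and 5.75% ± 0.47 of the arm in Negative, Sublow, Low and High cells (SD, n = 3 each). In miR-22-3p they took 2.03% ± 0.21 in Negative, 1.93% ± 0.14 in Sublow, 1.72% ± 0.50 in Low and 3.58% ± 1.54 in High cells. High replicate 2 raised that mean, with the High libraries at 3.08, 5.31 and 2.36%, and Low libraries reached 2.23%. In miR-802-5p their mean share was 5.43% in Negative, 5.50% in Sublow, 7.79% in Low and 9.39% in High cells. For miR-1981-5p no shifted form reached a group mean of 10 RPM. Entries under about 10 reads are listed at 0, so shares of rare forms are understated most in shallow libraries.

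The +1 form of miR-22-3p was also lowest in Low. It averaged 54.6 ± 7.35, 27.6 ± 5.81, 12.4 ± 3.41 and 45.2 ± 25.0 RPM in Negative, Sublow, Low and High cells (SD, n = 3 each), and was lower in Low than in High (−1.68, SE 0.35, adjusted p = 0.00440). The −1 form was listed at 2.08 RPM in Low and 14.1 RPM in High cells, so the Low value is near the listing limit. Of the 13 other forms and arms of the members' hairpins that were tested, 9 were higher and 2 lower in Low than in High, against 20.1% and 7.99% of all entries. Of the 9, miR-1981-3p and miR-203-5p averaged 0.50 and 0.30 RPM in High, at the listing limit. The miR-203-3p −1 and miR-802-5p +1 forms were listed at 0 in High replicate 2 and High replicate 3. These forms passed the filter on low values through groups where they were higher, so nothing is read from the counts. After median-ratio rescaling 7 were higher and 2 lower, without the miR-203-3p +2 form (adjusted p = 0.0895) and the miR-802-5p +1 form (adjusted p = 0.0887). Of all 588 entries 70 were higher and 81 lower under that scaling. Between Negative and Sublow, 0 of the 13 passed in limma as deposited, where 51 of all 588 entries were higher and 158 lower. Of the 13, 1 had an unadjusted p below 0.05. After median-ratio rescaling 4 of the 13 were higher in Negative, against 75 of all 588 entries. These were the +1 forms of miR-203-3p, miR-22-3p (adjusted p = 0.0105) and miR-378-3p (adjusted p = 0.0493) and miR-802-3p (adjusted p = 0.0116).

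The other arm of miR-802 was listed at lower levels than miR-802-5p. miR-802-3p had 54.4, 53.7 and 54.2 RPM in Negative cells, 45.0, 39.3 and 33.4 RPM in Sublow cells, 36.0, 31.7 and 33.2 RPM in Low cells, and 25.1, 34.8 and 17.4 RPM in High cells. The Negative libraries lay above all others of the gates, and the Low and High libraries overlapped. miR-802-3p was at 0.42 between Low and High (SE 0.24, adjusted p = 0.223), where miR-802-5p was at 1.72. Its share of all reads of the hairpin was 6.60 to 9.60% in Negative, 4.82 to 9.11% in Sublow, a mean of 10.8% in Low and 16.4 to 29.7% in High libraries. The miR-802-3p values rest on the fewest reads in High replicates 2 and 3, the shallowest libraries, and the difference between the arms was not tested.

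miR-378-5p, the other arm of miR-378, averaged 127 ± 29.1, 147.8 ± 49.9, 66.9 ± 17.5 and 39.4 ± 20.5 RPM in Negative, Sublow, Low and High cells (SD, n = 3 each). It did not pass between Low and High (0.89, SE 0.42, adjusted p = 0.138). Its share of the hairpin was 0.391 to 1.14% over the libraries of the gates. The other arms miR-203-5p, miR-22-5p and miR-1981-3p had group means of at most 11.8 RPM.

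By their pattern over the 12 sorted libraries, 4 of the members lay close together and miR-22-3p lay apart. Pearson r on the log2 scale, over libraries that share gates and scaling, is given as a description. The members were chosen for a rise over these same gates, so high r among them follows in part from the choice. miR-203-3p, miR-378-3p and miR-802-5p were each other's nearest entries among the 273 annotated-start entries compared, at 0.972 (miR-203-3p with miR-378-3p), 0.957 (miR-203-3p with miR-802-5p) and 0.975 (miR-378-3p with miR-802-5p). Next came miR-103-2-3p for miR-203-3p (0.918) and miR-378-3p (0.961), and miR-1981-3p for miR-802-5p (0.935). miR-1981-3p averaged 0.50 RPM in High and at most 10.6 RPM in the other groups, so its r rests on values near the listing limit. For miR-1981-5p the nearest were miR-378-3p (0.930), miR-194-1-3p (0.918) and miR-215-3p (0.908). For miR-22-3p they were miR-5109 (0.840), miR-31-5p (0.839) and miR-5105 (0.826), and its r with the other members was 0.368 to 0.560.

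miR-31-5p, a miRNA linked to crypt regeneration, averaged 15789 RPM in Negative, 12698 RPM in Sublow, 7087 RPM in Low and 7699 RPM in High cells. miR-103-2-3p averaged 3764, 3822, 2102 and 1533 RPM in Negative, Sublow, Low and High cells. Of all tested entries 11 (1.87%) stepped down from Negative to Sublow to Low to High without overlap, and miR-203-3p was 1 of 3 of these at the annotated start, with miR-194-2-5p and miR-215-3p. In 4 entries (0.680%) Negative lay above Sublow and Sublow above Low while High also lay above Low, and miR-22-3p was the 1 of them at the annotated start. Both patterns were picked after the levels were seen.

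Of all 588 tested entries, 16.5% were called higher and 49.5% lower in Negative than in Low by limma. Those were 97 higher and 291 lower entries, against 136 and 131 after median-ratio rescaling, and between Low and High 118 were higher and 47 lower, against 70 and 81 after it. Of 8 other miRNAs linked to epithelial differentiation in earlier work, 7 were tested, and 0 were higher and 6 lower in Negative than in Low (median −1.28, against −0.90 for all entries). miR-205-5p averaged 10.3 RPM in Negative and 74.4 RPM in Low (−2.81, adjusted p = 2.50e-05), miR-23b-3p 81.2 and 267 RPM (−1.71, adjusted p = 4.07e-05), and miR-27b-3p 1537 and 3729 RPM (−1.28, adjusted p = 1.13e-06). miR-184-3p averaged 0.31 RPM in Negative, at its listing limit, and 225 RPM in Low. After median-ratio rescaling 0 were higher and 4 lower. After dividing by the total without miR-192, miR-194 and miR-215, 1 was higher and 3 lower, where 137 and 117 of all 588 entries were. Between Low and High, 2 of the 7 were higher in Low and 0 lower, miR-34a-5p (1.63, adjusted p = 0.00517) and miR-30a-5p (0.44, adjusted p = 0.0163), and 1 was higher and 1 lower after median-ratio rescaling.

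Of 12 miRNAs linked to lipid and glucose metabolism, 10 were tested. In Negative against Low, 1 was higher, miR-103-2-3p (0.84, adjusted p = 7.47e-04), and 5 were lower, against 16.5% and 49.5% of all entries. The median of the 10 was −0.996, against −0.90 for all entries, and nothing is read from these counts. miR-148a-3p averaged 1278 RPM in Negative and 8441 RPM in Low (−2.75, adjusted p = 5.42e-07), miR-122-5p 7.56 and 23.8 RPM (−1.47, adjusted p = 0.0234), miR-26a-2-5p 10468 and 28224 RPM (−1.43, adjusted p = 1.75e-07), and miR-130b-3p 157 and 361 RPM (−1.19, adjusted p = 4.70e-05). After median-ratio rescaling 2 were higher and 2 lower, where 136 and 131 of all 588 entries were. Between Low and High, 4 were higher in Low and 0 lower, against 20.1% and 7.99% of all entries (median 0.97, against 0.11 for all entries). The 4 were miR-148a-3p (1.46), miR-107-3p (1.35), miR-130b-3p (1.18) and miR-29a-3p (0.75). With that rescaling 3 were higher and 1 lower, where 70 and 81 of all 588 entries were.

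Markers of cells outside the epithelium summed to at most 213 RPM per list in every library. The summed haematopoietic markers (5 of 5 listed) were 10.04 to 11.3 RPM in Non-sorted, 6.51 to 102.9 RPM in Negative, 11.7 to 161 RPM in Sublow, 42.4 to 213 RPM in Low and 11.1 to 67.3 RPM in High libraries, with miR-142-3p at 0 in all of them. In Low cells the others averaged 77.4 (miR-155-5p), 37.8 (miR-150-5p), 16.4 (miR-142-5p) and 1.12 RPM (miR-223-3p). The erythroid sum was at most 38.3 RPM, nearly all from miR-486-5p (mean 33.8 RPM in High), with miR-451 and miR-144-3p at 0 throughout. The muscle and mesenchyme sum (5 of 7 listed) was 19.4 to 34.5 RPM in Negative and at most 95.7 RPM elsewhere, with miR-145-5p at 0, and the endothelial sum was at most 17.1 RPM. In Low cells miR-143-3p averaged 38.2 RPM and miR-1a-1-3p 23.4 RPM. A listed 0 stands for fewer than about 10 reads, so the zeros do not show that such cells were absent. Why miR-142-3p is at 0 where its other arm, miR-142-5p, is listed was not tested. The epithelial sum of miR-200 family members and miR-192-5p was 107497 to 193866 RPM over all libraries.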

How the data were processed

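Small RNA was sequenced from 14 libraries prepared with the TriLink CleanTag kit, per the labels' protocols. The authors deposited RPM, scaled to 1e+06 reads per library over the miRNA entries. The build is mm9 per the submitters' processing notes. Aligner, read counter, filters: not given in the sources used here. Depth was estimated from the steps between low values, of which 69.2 to 85.1% were whole reads within 0.1 read, so no count test was run. The smallest listed value was 9.99 to 10.9 reads, and a listed 0 was read as fewer. Each library matched 1 column by its description label.

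Entries with at least 10 RPM in at least 3 libraries (588, of which 275 at the annotated start) were analysed as log2(RPM + 1) in 1 limma model of the 5 groups (limma 3.58.1 under R 4.3.3, moderated with a trend). Tests were two-sided, adjusted by Benjamini-Hochberg over all 588 entries, at 0.05. The procedure was tested on simulated data with independent noise in each entry and library. Those data had no deviations shared between libraries and no shift in composition, so nothing is read from them about either. The pseudocount understates differences of low entries.

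The members and lists were chosen with earlier results of these data known. Named were the members and some, not all, of their other forms with a mean of at least 10 RPM in any group. Also named were the 3 most similar annotated-start entries of another hairpin and seed by Pearson r, list members past the threshold (up to 4 a list by size), and miR-215-5p. Alternatives were other scalings, pseudocounts, filters, a fit without the trend, lane, a replicate block and leaving out each library. The lane term took the Combo label L000 as a single lane, which the labels do not establish. Coordinates and sequences are from RefSeq GRCm38.p6, and overlaps from GENCODE M21.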

Additional observations from a re-analysis of the deposited data

How the results depend on the processing

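As deposited, 5 of 5 members passed between Low and High, 2 between Negative and Sublow, 3 between Non-sorted and Low and 0 between Non-sorted and Negative. With median-ratio rescaling and with the total without miR-192, miR-194 and miR-215, 4 passed between Negative and Sublow, 5 between Non-sorted and Low and 1 between Non-sorted and Negative. Quantile normalization gave 5 between Non-sorted and Low. Without a filter on low values 1 passed between Negative and Sublow and 1 between Non-sorted and Low, and with lane as a term 1 passed between Negative and Sublow. Leaving out 1 library gave 4 to 5 between Low and High, 1 to 3 between Negative and Sublow, 1 to 4 between Non-sorted and Low and 0 to 2 between Non-sorted and Negative. With 1 library left out, miR-22-3p ranged from −0.17 to 0.17 between Non-sorted and Negative and miR-802-5p from −0.26 to 0.29 between Negative and Sublow. Signs turned for miR-22-3p between Non-sorted and Negative, at 0.17, 0.027 and 0.015 without Non-sorted replicate 1, Negative replicate 2 and Negative replicate 3, and for miR-802-5p between Negative and Sublow, at −0.14 and −0.26 without Negative replicate 3 and Sublow replicate 2. The cause of these changes was not tested. With the replicate number as a block, 4 members passed between Non-sorted and Low, where miR-378-3p was at 0.41 (adjusted p = 0.0263), and the block left the other 3 counts at 5, 2 and 0. The labels give same-numbered libraries a shared prefix without saying what it marks. Over all groups, deviations of same-numbered libraries correlated at a median of 0.329 (−0.354 to 0.776), against −0.106 for other pairs. They did so at 0.387 to 0.713 between Sublow and Low and 0.375 to 0.601 between Sublow and High, where 6 of 6 libraries correlated best with their own number, and which were not tested here. In the tested comparisons they did so at −0.354 to 0.776 between Negative and Sublow and 0.0766 to 0.753 between Low and High. There 4 of 6 and 2 of 6 libraries correlated best with their own number. The range was 0.0239 to 0.0714 between Non-sorted and Low and −0.0148 to 0.11 between Non-sorted and Negative. Deviations of the 2 Non-sorted libraries mirror each other, so these values cannot decide on pairing. The numbers were not taken as pairs because the labels do not say what they mark. Depth limits the shifted forms and other arms, which fall to the listing limit of about 10 reads.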
